A study of Mus musculus with 4 samples.

Results

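Radial glia are the neural stem cells of the embryonic cortex. Their cell bodies lie in the ventricular zone, an apical process reaches the ventricle, and a long basal process reaches the pial surface and guides newborn neurons. They are known by transcription factors of the stem cell state, by filament proteins of the cytoskeleton, by a lipid binding protein and a glutamate transporter that they share with astrocytes, and by proteins of the apical surface and of the matrix around the cell. Here 10 genes of that kind were followed in the deposited count table: Pax6 and Sox9 (transcription factors), Nes and Vim (intermediate filaments), Fabp7 and Slc1a3 (lipid binding and glutamate uptake), Prom1 (apical membrane), and Hopx, Ptprz1 and Tnc, which are known as marks of outer radial glia in human cortex. They were taken from the table by gene name, as a list drawn up with earlier results of these data known. All 10 of the 10 names were present among 26955 genes in the table, each with 1 identifier, and all 10 passed the filter on low counts that left 15804 genes for testing.

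The study asked what loss of gasdermin D, the pore-forming protein that executes pyroptosis, does to neurogenesis, and sequenced RNA of the developing brain at E13. The knockout mice were GSDMDfl/fl;Nestin-Cre (Gsdmd cKO-Nes, here cKO) on the C57BL/6 strain, in which Cre recombinase under the Nestin promoter acts in neural progenitor cells. The control mice were of the same strain and stage and carry the label WT, while the study's methods name their genotype Gsdmd fl/fl, the tissue cerebral cortex where the labels say brain, and the stage E13.5 where the labels say E13. The series text speaks of triplicates, and 4 libraries were analysed here, cKO replicates 2 and 6 and control replicates 4 and 5. No Cre is named for the controls, so effects of Cre itself and of the deletion cannot be told apart. The promoter that drives Cre belongs to Nes, which is also among the 10 genes, and no source used here says whether the transgene contributes reads to Nes. Whether each library is a mouse of its own is not stated in the sources used here, so the p-values cover the scatter among these 4 libraries alone. Control replicates 4 and 5 had different sex profiles, given below, and so did not come from the same embryo. For cKO replicates 2 and 6 the scatter may be technical. In whole tissue, fewer radial glia and less RNA per radial glia cell cannot be told apart.

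Total counts ranged from 17863433 to 18205945 in the cKO libraries and from 16962553 to 17377394 in the control libraries. Gsdmd itself had 13 and 7 counts in the cKO libraries, against 54 and 43 in the controls (log2 fold change -2.34, standard error 0.40, adjusted p = 0.0846 by edgeR's quasi-likelihood test), lower in both cKO libraries but short of the threshold of 0.05. DESeq2 (adjusted p = 0.0319) and edgeR's likelihood ratio test (adjusted p = 9.27e-06) called Gsdmd and limma-voom (adjusted p = 0.101) did not. The counts of Xist were 3 and 12 in the cKO libraries, against 1 and 7640 in control replicates 4 and 5, and 4 Y-linked genes summed to 4 counts in control replicate 5 and to at least 1857 in each other library. Control replicate 5 thus had a female profile and the other libraries a male one. None of the 10 genes lies on a sex chromosome.

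None of the 10 radial glia genes passed the test between genotypes. edgeR's quasi-likelihood test called 0 of 10 at an adjusted p under 0.05, against 0.202% of all tested genes, and so did DESeq2, limma-voom and edgeR's likelihood ratio test. At an unadjusted p under 0.05 there was 1 gene, Ptprz1, where 7.11% of all tested genes reached that level. Levels are given as CPM (counts scaled to library size, with TMM factors), and fold changes as log2 of cKO over control. The log2 fold changes lay between -0.43 (Ptprz1) and 0.26 (Tnc), with a median of -0.06 over the 10 genes and -0.01 over all tested genes. The 95% intervals of all 10 lay within 1 log2 unit of 0, from -0.79 at the lowest to 0.60 at the highest, and 9 of the 10 included 0. The cKO and control libraries did not overlap for 3 genes: Ptprz1 and Fabp7 were lower and Tnc was higher in cKO replicates 2 and 6 alike than in either control. Among all tested genes 37.2% had groups that did not overlap, in either direction. Simulated counts with known changes, drawn with the dispersions of these libraries, were put through the quasi-likelihood test. It called 21.5% of 65 genes changed 1.5-fold and 74.2% of 66 genes changed 2-fold, with 13 false calls. Small differences in the 10 genes would thus often go uncalled.

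**Figure D1:**
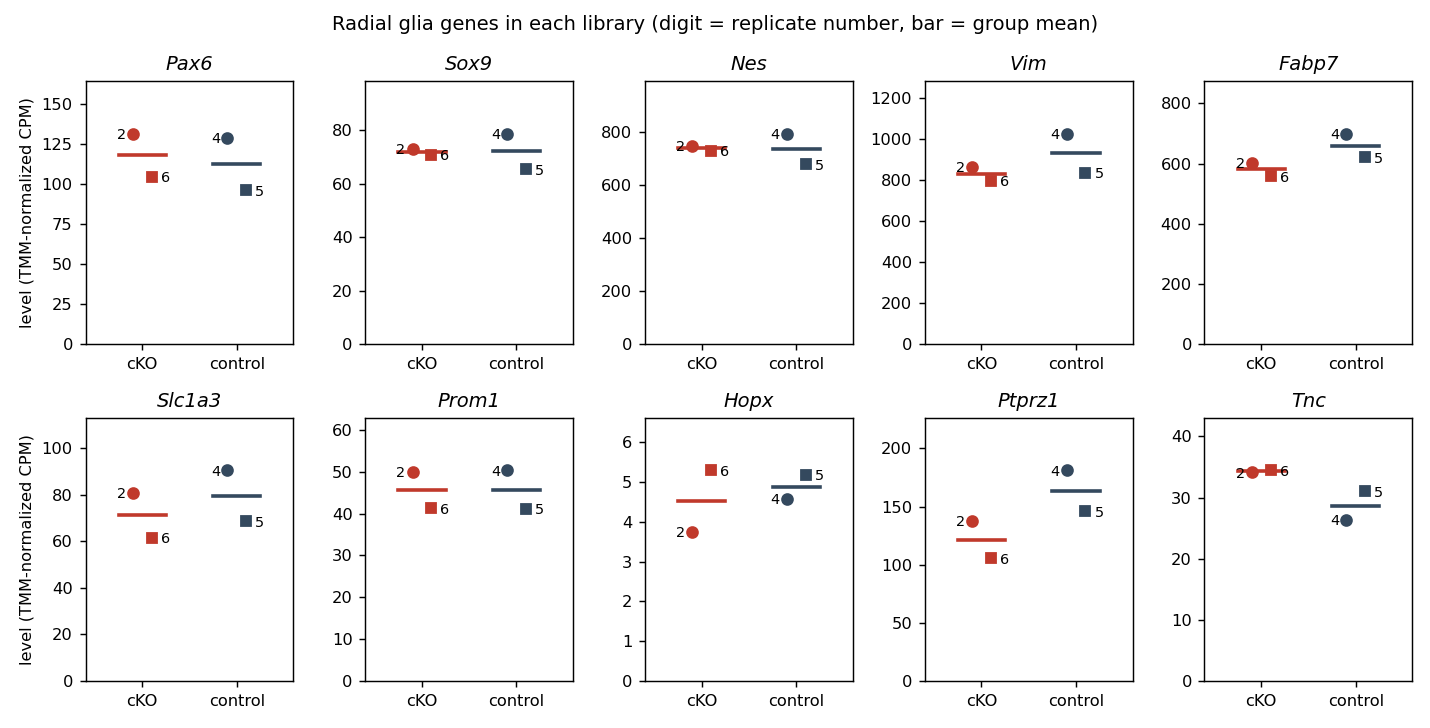
Level of each radial glia gene (TMM-normalized CPM, vertical axes from 0) in the 2 cKO libraries on the left and the 2 control libraries on the right of each panel, with replicate numbers beside the points and a bar at the group mean. Groups are apart for Fabp7, Ptprz1 and Tnc, and Nes, Sox9 and Prom1 have nearly the same mean in both genotypes.

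**Figure D2:**
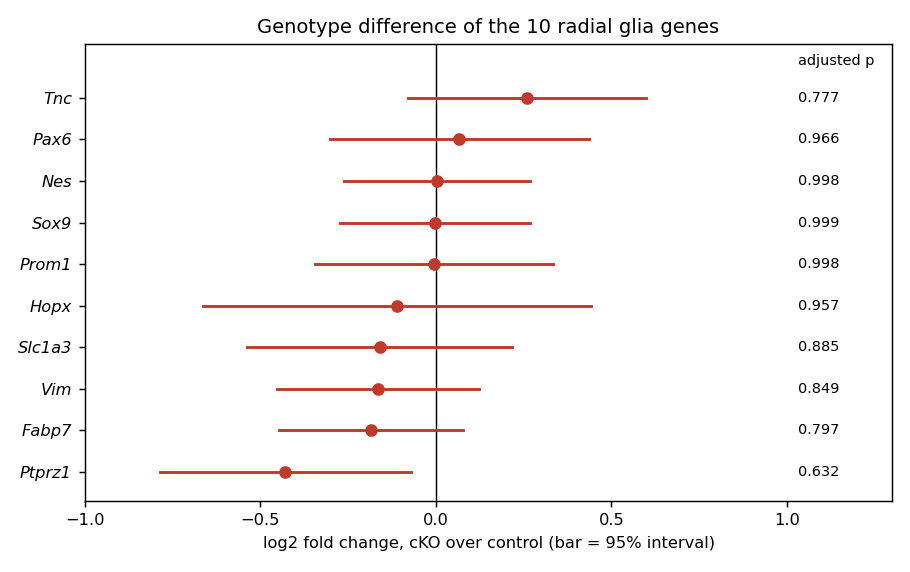
Log2 fold change of cKO over control for the 10 genes (horizontal axis) with its 95% interval and the adjusted p-value of edgeR's quasi-likelihood test at the right. The intervals run from -0.79 to 0.60, and that of Ptprz1 is the only interval that leaves out 0.

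Among the transcription factors, Pax6 (chr2:105668900-105697364, plus strand), a paired-domain and homeodomain protein that specifies cortical radial glia, had 131.5 and 104.4 CPM in cKO replicates 2 and 6, against 129.0 and 96.2 CPM in control replicates 4 and 5. The groups interleaved, with the libraries of replicates 2 and 4 high and those of 6 and 5 low. The log2 fold change of Pax6 was 0.07 (standard error 0.16, 95% interval -0.30 to 0.44, adjusted p = 0.966 by edgeR's quasi-likelihood test). Sox9 (chr11:112782224-112787760, plus strand), an SRY-box factor that acts in the induction and upkeep of neural stem cells and later in gliogenesis, had 73.2 and 70.9 CPM in the cKO libraries, against 78.8 and 65.5 CPM in the controls. Both cKO values of Sox9 lay between the control values. Sox9 averaged 72.0 ± 1.58 CPM in the cKO libraries and 72.2 ± 9.37 CPM in the controls (SD, n = 2 each), and its interval ran from -0.27 to 0.27 on the log2 scale.

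Of the filament genes, Nes (chr3:87971078-87980451, plus strand) encodes nestin, the intermediate filament protein of neural stem cells that also gives the Cre line its name. It had 748 and 730 CPM in the cKO libraries, against 795 and 679 CPM in the controls, so that the cKO values again lay between those of the controls. The log2 fold change of Nes was 0.00 (standard error 0.12, 95% interval -0.26 to 0.27, adjusted p = 0.998 by edgeR's quasi-likelihood test). Vim (chr2:13573927-13582826, plus strand) encodes vimentin, the filament with which nestin co-assembles. It had 863 and 796 CPM in the cKO libraries, against 1025 and 833 CPM in the controls. Control replicate 4 was the high library and the lower control lay between the cKO values, and the log2 fold change of -0.16 (standard error 0.13, 95% interval -0.45 to 0.12) did not pass the test (adjusted p = 0.849 by edgeR).

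Fabp7 (chr10:57784881-57788450, plus strand), the brain lipid binding protein that carries fatty acids in radial glia and astrocytes, had 603 and 558 CPM in the cKO libraries, against 699 and 620 CPM in the controls. The groups did not overlap, but cKO replicate 2 and control replicate 5 lay close to each other. Fabp7 averaged 580 ± 32.4 CPM in the cKO libraries and 659.8 ± 55.8 CPM in the controls (SD, n = 2 each), a log2 fold change of -0.18 (standard error 0.12, 95% interval -0.45 to 0.08, adjusted p = 0.797 by edgeR's quasi-likelihood test). Slc1a3 (chr15:8634124-8710764, minus strand), the glutamate transporter GLAST, had 80.8 and 61.7 CPM in the cKO libraries, against 90.5 and 68.6 CPM in the controls. The groups overlapped and each held a high and a low library. The log2 fold change of Slc1a3 was -0.16 (standard error 0.17, 95% interval -0.54 to 0.22, adjusted p = 0.885 by edgeR).

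Prom1 (chr5:43993620-44102032, minus strand) encodes prominin-1 (CD133), a membrane protein of the protrusions on the apical surface. Its level was 50.0 and 41.3 CPM in the cKO libraries, against 50.3 and 41.2 CPM in the controls. The high and the low library of each genotype thus matched closely, and the log2 fold change was -0.01 (95% interval -0.34 to 0.33, standard error 0.15, adjusted p = 0.998 by edgeR's quasi-likelihood test).

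Of the genes that mark outer radial glia in human cortex, Hopx (chr5:77086988-77115121, minus strand), a small homeodomain protein that does not bind DNA itself, was thinly counted, with 68 and 95 counts in the cKO libraries, against 80 and 87 counts in the controls. As CPM these were 3.75 and 5.30 in cKO, against 4.59 and 5.18 in the controls, and both control values lay between the cKO values. Its 95% interval on the log2 scale, -0.66 to 0.44, was the widest of the 10. Ptprz1 (chr6:22875502-23052916, plus strand), a receptor-type tyrosine phosphatase that is also shed as the proteoglycan phosphacan, had 137.6 and 105.4 CPM in the cKO libraries, against 181.1 and 146.0 CPM in the controls. Each cKO library lay below each control, cKO replicate 2 only a little below control replicate 5. Ptprz1 averaged 121 ± 22.8 CPM in the cKO libraries and 164 ± 24.8 CPM in the controls (SD, n = 2 each), a log2 fold change of -0.43 (standard error 0.16, 95% interval -0.79 to -0.07), with an unadjusted p of 0.0239 and an adjusted p of 0.632 by edgeR's quasi-likelihood test. Without cKO replicate 2 the log2 fold change was -0.63 and the quasi-likelihood test called Ptprz1 (adjusted p = 0.0383 by edgeR), with the lone cKO library taken to vary as the controls do. DESeq2 (adjusted p = 0.287) and limma-voom (adjusted p = 0.190) did not call it in the same 3 libraries, and 0.0383 was its lowest adjusted p over all alternatives.

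Tnc (chr4:63959785-64047015, minus strand) encodes tenascin-C, a large glycoprotein of the extracellular matrix in the stem cell niche and a binding partner of the Ptprz1 product. It had 34.2 and 34.5 CPM in the cKO libraries, against 26.3 and 31.0 CPM in the controls. The cKO libraries were nearly equal and lay above both controls, of which replicate 4 was the lower. Tnc averaged 34.3 ± 0.212 CPM in the cKO libraries and 28.7 ± 3.32 CPM in the controls (SD, n = 2 each), a log2 fold change of 0.26 (standard error 0.15, 95% interval -0.08 to 0.60, adjusted p = 0.777 by edgeR's quasi-likelihood test).

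The DNA just upstream of Fabp7, Ptprz1 and Tnc is shown because these were the genes with groups apart. The sequences are from RefSeq (GRCm38.p6), run 5′ to 3′ on the gene's own strand, and stop at the first base of the gene as the deposited table places it. Capitals mark matches on either strand to TGGGAA, the core that the Notch effector RBPJ binds, to ACAAAG, a core bound by SOX factors, or to ATGCAAAT, the octamer bound by POU factors. These motifs do not overlap each other in the windows shown.
Fabp7 (chr10:57784673-57784880, plus strand): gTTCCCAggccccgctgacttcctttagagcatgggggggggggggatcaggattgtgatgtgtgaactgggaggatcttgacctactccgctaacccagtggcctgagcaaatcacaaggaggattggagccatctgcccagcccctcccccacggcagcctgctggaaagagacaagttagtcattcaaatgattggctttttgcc
Ptprz1 (chr6:22875252-22875501, plus strand): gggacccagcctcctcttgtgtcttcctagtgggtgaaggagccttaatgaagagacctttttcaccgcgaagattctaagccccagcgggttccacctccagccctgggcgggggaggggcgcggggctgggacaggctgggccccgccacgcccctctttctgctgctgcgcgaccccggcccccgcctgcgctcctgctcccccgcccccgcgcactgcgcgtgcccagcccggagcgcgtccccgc
Tnc (chr4:64047016-64047265, minus strand): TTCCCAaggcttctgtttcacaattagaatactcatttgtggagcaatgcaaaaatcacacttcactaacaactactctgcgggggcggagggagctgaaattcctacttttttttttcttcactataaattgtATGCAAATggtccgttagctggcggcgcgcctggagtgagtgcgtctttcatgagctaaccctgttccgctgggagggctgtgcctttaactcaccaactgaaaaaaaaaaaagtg
The Fabp7 and Tnc stretches hold a reverse match to TGGGAA near their 5′ ends, Tnc also holds the octamer, and the Ptprz1 stretch holds none of these letters. Over 250 bases before the start, 9 of the 10 genes had a RefSeq entry, with 13 start sites in all. TGGGAA was present at 4 of these 13 starts (Fabp7, Prom1 and Tnc), against 21.6% of 32851 windows of all genes. ACAAAG was present at 1 start (Pax6), against 16.5% of all windows, and ATGCAAAT at 2 starts, both of Tnc and reading the same 8 bases, against 1.6% of all windows. These are matches of letters and say nothing of binding in these libraries.

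Levels can be set against each other only per length. As mean CPM per kilobase of exon over the 4 libraries, Fabp7 stood at 496, Vim at 185 and Nes at 115, and Sox9 followed at 17.4. Ptprz1 came next, then Pax6 (9.86) and Slc1a3 (8.83) and, below them, Prom1 (6.37), Tnc (4.05) and Hopx (3.10). The ranges over libraries overlapped for the neighbours Ptprz1 and Pax6, Pax6 and Slc1a3, and Tnc and Hopx, so their order is not fixed by these libraries. The union of exons counts all annotated transcripts, and for Pax6 it is 11694 bases, against 2869 for the principal transcript. With principal transcript lengths Pax6 reached 40.2 CPM per kilobase and took the place after Nes, and Sox9, Ptprz1 and Slc1a3 lay at 17.4 to 18.1 with overlapping ranges. Fabp7, Vim and Nes led and Tnc and Hopx closed the order with either length.

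**Figure D3:**
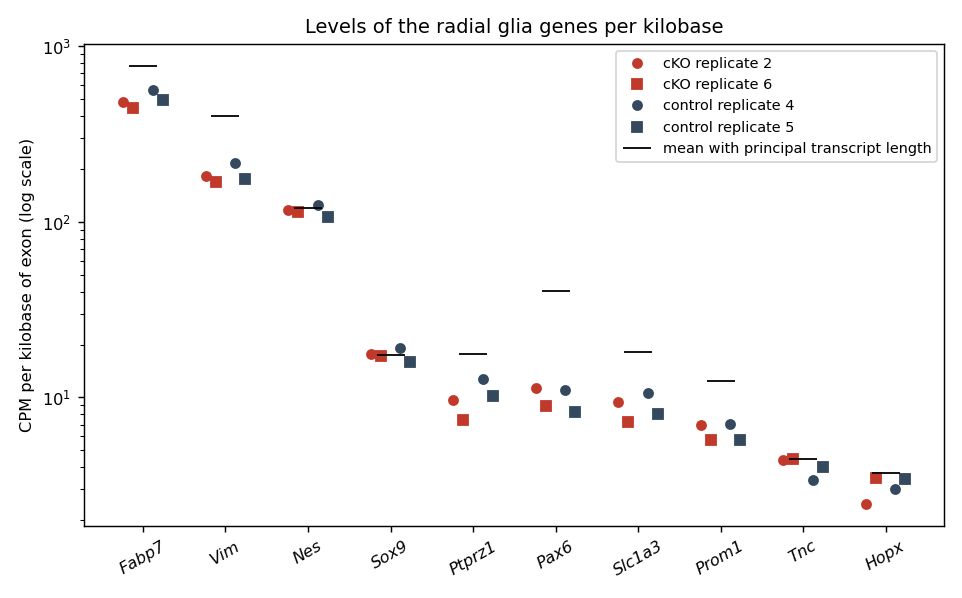
Level of each gene per kilobase of exon (log scale) in the 4 libraries, ordered by mean, with a black dash at the mean when the principal transcript length is used. Fabp7, Vim and Nes lie above 100, and the places of Sox9, Ptprz1, Pax6 and Slc1a3 depend on the length chosen.

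The spread between replicates was as large as the genotype difference for most of the set. In 7 of the 10 genes the absolute log2 fold change between genotypes was smaller than the larger difference between replicates of a genotype. The exceptions, Fabp7, Ptprz1 and Tnc, are the genes with groups apart, as 37.2% of all tested genes were. The share of smaller genotype differences over all tested genes was not computed, so whether the count is particular to this set is not known. The differences between replicates had the same sign in most of the 10 genes. For 8 genes cKO replicate 2 was above cKO replicate 6 and control replicate 4 above control replicate 5, where 33.6% of all tested genes showed that pattern. The genes Hopx and Tnc were lower in replicates 2 and 4, as were 31.2% of all tested genes. In log2 CPM, replicate 2 minus replicate 6 in cKO was 0.39 for Slc1a3, 0.38 for Ptprz1 and 0.33 for Pax6, and replicate 4 minus replicate 5 in controls was 0.40 for Slc1a3, 0.31 for Ptprz1 and 0.42 for Pax6. For Hopx the differences were -0.50 in cKO and -0.17 in controls. The 10 genes together took 0.277% and 0.247% of all counts in cKO replicates 2 and 6, against 0.309% and 0.256% in control replicates 4 and 5. No label ties replicate 2 to 4 or 6 to 5.

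**Figure D4:**
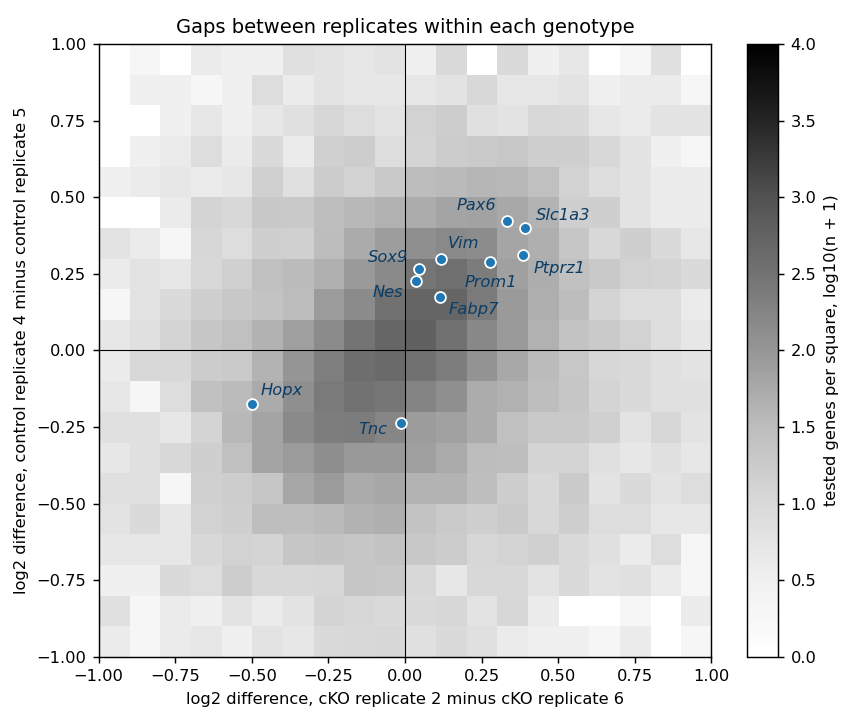
Log2 difference between the cKO replicates (horizontal axis) against that between the control replicates (vertical axis) for the 10 genes (blue), over the density of tested genes (grey, 14733 of 15804 lie within the axes). The 8 genes at the upper right were higher in replicates 2 and 4, and Hopx and Tnc lie at the lower left.

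The genes with the most similar profiles were sought for the 3 members with the widest range over the libraries, by the distance between log2 CPM centred on each gene's mean over the 4 libraries. For Ptprz1 these were Sfrp2, a secreted WNT antagonist, Rnd3, an atypical small GTPase, and Vit, a matrix protein, at distances of 0.06, 0.08 and 0.08, where Ptprz1 itself spanned 0.78. Rnd3 had 107.3 and 82.7 CPM in the cKO libraries, against 133.6 and 116.1 CPM in the controls, with each cKO value below each control value. For Slc1a3 they were Pclaf and Nusap1, which act in DNA replication and the mitotic spindle, and Terf1, a telomere protein, at 0.03 to 0.04. Pclaf had 170 and 129 CPM in the cKO libraries, against 185 and 144 CPM in the controls, the same high and low libraries as Slc1a3. For Hopx they were 2310022A10Rik, Zfp703 and Atn1 at 0.03 to 0.04. These genes were picked for their likeness over the same libraries, so their high and low libraries follow from the choice. The distances rest on 4 libraries and on 10019 genes compared (10020 for Hopx), and nothing about function or control follows from them.

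Genes with related roles were counted in 7 lists of 91 genes, 83 of which were tested. The quasi-likelihood test and limma-voom called 0 of 83, where the quasi-likelihood test called 0.202% of all tested genes. An unadjusted p under 0.05 was reached by 10 (4 higher and 6 lower in cKO), against 7.11% of all tested genes in either direction. The median log2 fold change was -0.01, as over all tested genes. DESeq2 and the likelihood ratio test each called 1 gene, Sox1, lower. When cKO replicate 2 was left out, 8 of them, named here for that, passed the quasi-likelihood test (Aldoc, Bcan, Ednrb, Emx2, Hmga2, Lhx2, Nfix and Prph, 6 higher and 2 lower), in a fit that called 260 genes over the whole table, against 32 with all 4 libraries, while DESeq2 called 3 and limma-voom 4 of the related genes there. When control replicate 4 was left out, the quasi-likelihood test called Prph alone, limma-voom Nefl alone (lower) and DESeq2 0 of them. In the list of ventricular zone transcription factors, 5 of 18 reached an unadjusted p under 0.05, against the same 7.11% overall. The SOXB1 factor Sox1 had 110 and 105 CPM in the cKO libraries, against 153 and 152 CPM in the controls (log2 fold change -0.51, standard error 0.10, adjusted p = 0.177 by edgeR's quasi-likelihood test). The groups of Sox1 were far apart beside the small spread within each. In this list 9 of 18 genes had groups that did not overlap, against 37.2% of all tested genes. Sox21, a SOXB2 factor, had a log2 fold change of -0.49 (adjusted p = 0.456 by edgeR) and Emx2, a homeobox gene of the dorsal telencephalon, one of 0.49 (adjusted p = 0.463 by edgeR).

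Of the genes around Ptprz1 and Tnc (other matrix proteins, ligands and receptors), 0 of 14 were called, against 0.202% of all tested genes. The median log2 fold change of these 14 was -0.04. Cntn1, the adhesion protein contactin-1 that binds PTPRZ1, had 11.5 and 8.70 CPM in the cKO libraries, against 13.8 and 15.95 CPM in the controls (log2 fold change -0.56, adjusted p = 0.604 by edgeR). Both cKO values of Cntn1 were below both control values. Groups did not overlap for 2 of the 14 genes, against 37.2% of all tested genes. Itga9, a subunit of a tenascin-C receptor, had a log2 fold change of -0.38 and the proteoglycan gene Ncan one of 0.23. Among the 10 tested outer radial glia and astroglial genes, 0 reached an unadjusted p under 0.05, against 7.11% of all tested genes. The median log2 fold change of these 10 was 0.15. Il6st, the shared receptor subunit gp130, was at 0.34 and the glycolytic enzyme gene Aldoc at 0.36. Aldoc had 191 and 296 CPM in cKO replicates 2 and 6, against 183 and 198 CPM in the controls, so that 1 library stood above the rest. Leaving out cKO replicate 6 brought its log2 fold change to 0.02, and leaving out cKO replicate 2 to 0.64.

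Around Nes and Vim, 0 of 7 tested intermediate filament genes were called, where 0.202% of all tested genes were. The neuronal filament gene Prph had 40 and 101 counts in the cKO libraries, against 16 and 25 counts in the controls (log2 fold change 1.70, standard error 0.47, adjusted p = 0.437 by edgeR's quasi-likelihood test). The neurofilament genes Nefl and Nefm had log2 fold changes of -0.43 and -0.26. As their positions overlap in the table, their counts may depend on how reads in the overlap were treated. Around Fabp7 and Slc1a3, 0 of 7 lipid binding and glutamate uptake genes were called, and the amino acid transporter genes Slc1a5, Slc1a1 and Slc1a4 had log2 fold changes of 0.31, 0.30 and 0.16.

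Around Prom1, 0 of 15 apical surface and junction genes were called, where 0.202% of all tested genes were. The median log2 fold change of these 15 was 0.01. Fat4, an atypical cadherin, had 125 and 114 CPM in the cKO libraries, against 103 and 93.0 CPM in the controls (log2 fold change 0.28, adjusted p = 0.654 by edgeR). It was the only gene of that list of 15 with an unadjusted p under 0.05, as were 7.11% of all tested genes. Ctnnb1, the junction protein and WNT effector beta-catenin, had a log2 fold change of -0.19, and Arl13b, a GTPase of the primary cilium, one of -0.25. In 11 of these 15 genes replicates 2 and 4 were both the higher ones, as in 8 of the 10 members. Over all 7 related lists this held for 36 of 83 genes, and in the other 6 lists for 1 of 7 to 6 of 14, against 33.6% of all tested genes. Of 12 other ventricular zone genes 0 were called, and Ednrb, the endothelin receptor B, the matrix protein gene Sparc and the metallothionein gene Mt3 had log2 fold changes of -0.47, -0.31 and -0.25.

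Markers of other tissue in the samples differed with genotype beside these values. The summed level of 13 ventral telencephalon markers was 647 to 971 CPM in cKO, against 1298 to 1469 CPM in controls, with 12 of 13 below the controls at an unadjusted p under 0.05 (7.11% of all tested genes, either direction), 0 called and a median log2 fold change of -0.85. Of 8 tested diencephalon markers 3 were called lower by edgeR (0.202% of all tested genes were called). All 10 listed ones summed to 23.0 to 23.6 CPM in cKO, against 45.5 to 67.5 CPM in controls. Among them Tcf7l2, not called, had 12.2 and 12.3 CPM in cKO, against 19.9 and 14.6 CPM in controls. The 9 markers of the hem and choroid plexus summed to 5.34 to 13.4 CPM in cKO, against 21.7 CPM in control replicate 4 and 174 CPM in control replicate 5, the library with the female profile, with Otx2 called lower, and the 10 erythroid markers to 530 to 570 CPM in cKO, against 693 to 1040 CPM in controls. The 5 oligodendrocyte precursor markers summed to 26.6 to 34.5 CPM in cKO, against 68.1 to 78.3 CPM in controls. Of these, 1 gene, Olig2, was called lower, with 20.5 and 11.5 CPM in cKO, against 49.6 and 53.5 CPM in controls. The sum thus mainly follows Olig2, and whether these 5 genes mark such precursors at this stage was not tested. The 8 dorsal telencephalon markers summed to 1818 to 2190 CPM in cKO, against 1665 to 1815 CPM in controls, with 0 called, and share Emx2 and Lhx2 with the list of ventricular zone factors. The 8 markers of intermediate progenitors (1041 to 1158 CPM in cKO, against 949 to 1123 CPM in controls) and the 10 markers of neurons (5752 to 6282 CPM in cKO, against 5900 to 6657 CPM in controls) overlapped between genotypes. The 11 markers of mesenchyme and pericytes summed to 58.5 to 66.8 CPM in cKO, against 72.9 to 79.0 CPM in controls, and the 11 of microglia to 32.7 to 38.5 CPM in cKO, against 41.9 to 43.6 CPM in controls. The 9 endothelial markers overlapped, with 120 to 133 CPM in cKO and 125 to 144 CPM in controls. No marker in these lists was at 0 in all libraries. Without control replicate 5 the quasi-likelihood test and limma-voom called 0 genes in the whole table (694 and 648 at an unadjusted p under 0.05) and DESeq2 called 27. Their part in the values of Ptprz1, Fabp7 and Tnc was not tested.

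The fold changes of the 10 genes differed little between tests, scalings and filters, and more between subsets of libraries. Ptprz1 and Fabp7 were below 0 and Tnc above 0 on the log2 scale in every alternative. The ranges were -0.63 to -0.23 for Ptprz1, -0.26 to -0.09 for Fabp7 and 0.15 to 0.40 for Tnc. Their groups did not overlap, as for 37.2% of all tested genes, so leaving out 1 library could hardly change their sign. The kept sign is thus no separate result. The other 7 genes took either sign in some alternative, for Pax6 from -0.13 to 0.30, and none of these 7 was called in any. As each group has 2 libraries, leaving out 1 leaves a group with a single library. The difference of Ptprz1 with all 4 libraries was a ratio of 0.743 of cKO over control in mean CPM, that of Fabp7 0.880 and that of Tnc 1.20.

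**Figure D5:**
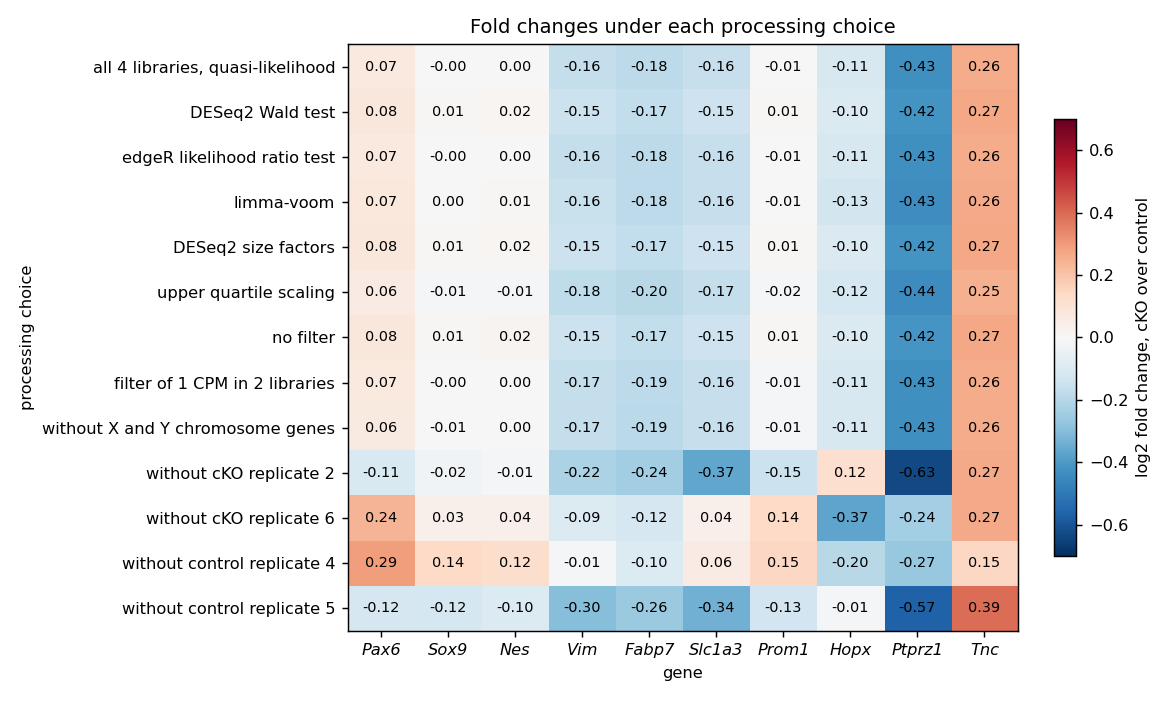
Log2 fold change of cKO over control for each gene (columns) under each processing choice (rows), with the value in each cell and red for higher, blue for lower in cKO. The lower 4 rows leave out 1 library each, and there Ptprz1 ranges from -0.63 to -0.24 and Pax6 changes sign.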

How the data were processed

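The 4 columns of counts that the authors deposited hold whole reads per gene and were used as they stand. According to the submitters' processing notes the tools were TopHat2 2.0.12, Bowtie2 2.2.3 and HTSeq 0.6.0, with the build mm9, whereas 92.9% of 26897 gene positions, those of the 10 genes included, match the GENCODE M21 annotation of GRCm38. The sources used here give neither the strand setting nor the annotation release. Annotated genes that overlap Pax6, Slc1a3, Prom1, Hopx or Tnc held at most 1.52% as many counts as the member. The deposited normalized mean (a signal), fold change (a ratio), log2 fold change and p-values of the authors' own comparison were not used.

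The test was edgeR 4.0.16 under R 4.3.3: filterByExpr (15804 genes kept), TMM scaling, glmQLFit and glmQLFTest without covariates, prior count 0.125, two-sided, Benjamini-Hochberg adjustment over all tested genes, called at an adjusted p under 0.05. The common dispersion was 0.0169. Standard errors were obtained from the F statistic, as the log2 fold change over its root. The alternatives were DESeq2 1.42.0 (test and size factors), the likelihood ratio test, limma-voom (limma 3.58.1), upper quartile scaling, no filter, a filter of 1 CPM in 2 libraries, leaving out X and Y genes, and leaving out each library. DESeq2 and limma-voom on 3 libraries and the principal transcript length were added after seeing the data. Simulated counts with known changes served to test the quasi-likelihood fit alone, with TMM scaling and the main filter.

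Named were the 10 members, Gsdmd, up to 3 genes by smallest p in each related list, overlapping genes, sex-linked genes, some markers, and the 3 nearest profiles (mean CPM of at least 10) of the 3 most variable members. Upstream sequences were named for the members with groups apart. The members, lists and rules were chosen with earlier results of these data known.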

Additional observations from a re-analysis of the deposited data

How the results depend on the processing

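With 2 libraries per group, 32 genes were called among all tested, against 81 by DESeq2, 148 by the likelihood ratio test and 8 without a filter, and 0 to 292 when 1 library was left out (over the 3 tools; without control replicate 5 the quasi-likelihood test and limma-voom called 0 and DESeq2 27). Of the 10 radial glia genes 0 were called, and 0 to 1 when 1 library was left out. Of the related genes 0 were called, 1 (Sox1) by DESeq2 and 1 by the likelihood ratio test, and 0 to 8 when 1 library was left out. Over 200 pairs of a radial glia gene and an alternative, 157 kept direction and side of the threshold, 1 (Ptprz1) came to pass it, and 42 changed sign, all of values that were not called. The log2 fold change of Nes was -0.0064 with upper quartile scaling. That of Sox9 was 0.0093 by DESeq2 and with its size factors, 0.0030 by limma-voom and 0.0106 without a filter. That of Prom1 was 0.0073 by DESeq2, 0.0072 with its size factors and 0.0086 without a filter. When 1 library was left out, log2 fold changes ranged from -0.13 to 0.30 for Pax6, -0.12 to 0.15 for Sox9, -0.10 to 0.13 for Nes, -0.30 to 0.0032 for Vim, -0.37 to 0.0661 for Slc1a3, -0.15 to 0.16 for Prom1 and -0.37 to 0.12 for Hopx. Fits on 3 libraries rest on a single library in a group. No paired analysis was possible because the groups share no replicate number.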
